A study of Homo sapiens with 6 samples.

Results

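The genes described here carry the unfolded protein response and the response to amino acid shortage in Ishikawa H cells, a human endometrial cancer line from a well differentiated adenocarcinoma. They were chosen by name as 57 genes that sense stress, regulate transcription, supply amino acids, or fold and remove proteins of the endoplasmic reticulum (ER). A gene counted as measured when the platform annotation gave a row of the array this single symbol, and of several such rows the one with the highest mean was kept. Under this rule 51 of the 57 genes were measured among 14232 genes tested. PSPH, GDF15, HSP90B1 and PDIA3 were listed only on rows that also name other genes, and ALDH1L2 and SEC61B on no row. The cells had been transfected with short hairpin RNA (shRNA) constructs against MTDH, which encodes metadherin and has been studied for its part in resistance to chemotherapy, or belonged to the control, with 3 arrays in the MTDH knockdown group and 3 in the MTDH control group. Both groups grew in the same serum-containing medium without a further agent and carry the label of a p53 mutation, G186T. The study's methods describe the expansion of individual puromycin-resistant clones after transfection of Hec50co cells and do not say how the Ishikawa H cells were selected. The arrays of a group may come from 1 clone, and p-values then measure only the spread between these arrays, which may be technical. The construct in the Ishikawa H control cells is not given in the labels, whereas the study's methods describe a non-silencing shRNA for Hec50co cells.

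Cells read protein folding trouble in the ER through 3 membrane sensors. PERK, the product of EIF2AK3, phosphorylates the initiation factor eIF2 alpha, IRE1, the product of ERN1, splices the XBP1 messenger RNA, and ATF6 is cut in the Golgi to release a transcription factor. The kinase GCN2, the product of EIF2AK4, phosphorylates the same factor when amino acids run short. Phosphorylated eIF2 alpha lowers general translation but favours translation of ATF4, which raises genes for amino acid synthesis and import and, through DDIT3 (CHOP), genes of cell death. ATF6 and spliced XBP1 raise ER chaperones and the machinery of ER-associated degradation. Much of this signalling runs through phosphorylation, splicing and cleavage, which arrays of transcript levels do not read.

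The sequences below are shown because 2 short elements are known as the targets of these factors, 1 of ATF6 and spliced XBP1 and 1 of ATF4. Promoters from 250 bases before to 50 bases after each annotated start were taken from RefSeq (GRCh38.p14) for 51 of the 57 genes, the others being NUPR1, PSPH, SHMT2, ALDH1L2, SLC7A11 and PDIA3. The members were chosen by name as genes of these responses, so their shares of matches are not independent of that choice. The ER stress response element was searched on both strands as CCAAT and CCACG with any 9 bases between them. A match stood in 6 of the 51 genes with a promoter (11.8%), in 25 of 27305 genes in the whole table (0.0916%) and in 0.141% of tested genes with a promoter. It stood at position -66 to -48 of HSPA5, the chaperone BiP, and the capitals mark it in this and the next 4 lines, each printed 5′ to 3′ along the gene's strand.
HSPA5 chr9:125241366-125241434, minus strand: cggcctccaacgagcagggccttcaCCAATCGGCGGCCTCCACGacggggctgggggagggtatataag
XBP1 chr22:28800578-28800646, minus strand: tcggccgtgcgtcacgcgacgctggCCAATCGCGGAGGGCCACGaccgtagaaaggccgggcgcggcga
CANX chr5:179698753-179698821, plus strand: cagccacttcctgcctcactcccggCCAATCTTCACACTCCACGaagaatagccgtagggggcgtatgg
PDIA6 (second annotated start) chr2:10812828-10812896, minus strand: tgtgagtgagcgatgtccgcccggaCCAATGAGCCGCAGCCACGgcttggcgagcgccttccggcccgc
CRELD2 chr22:49918529-49918597, plus strand: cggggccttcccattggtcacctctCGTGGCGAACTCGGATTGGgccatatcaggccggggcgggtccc

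In CRELD2 the match lies on the opposite strand, so its letters appear as the reverse complement. HSP90B1, the remaining gene with a match, was not measured.

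The core of the C/EBP-ATF response element, through which ATF4 acts, was searched on both strands as TGATGNAA. No member held both motifs. A match stood in 11 of the 51 genes (21.6%), in 1217 of 27305 genes (4.46%) and in 3.5% of tested genes with a promoter. A match describes the letters alone and is not evidence that a factor binds there. The capitals mark it in the next lines, of which the first 2 belong to genes with higher values in every knockdown array. The last 3 belong to genes with log2 fold changes below 0 and overlapping groups.
ASNS chr7:97872444-97872501, minus strand: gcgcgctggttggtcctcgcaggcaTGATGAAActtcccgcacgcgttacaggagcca
SLC38A1 chr12:46266513-46266545, minus strand: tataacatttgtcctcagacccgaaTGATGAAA
CHAC1 chr15:40953237-40953294, plus strand: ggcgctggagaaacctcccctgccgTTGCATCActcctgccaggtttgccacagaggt
FGF21 chr19:48755445-48755502, plus strand: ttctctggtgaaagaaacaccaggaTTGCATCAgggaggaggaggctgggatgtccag
HERPUD1 chr16:56931941-56931998, plus strand: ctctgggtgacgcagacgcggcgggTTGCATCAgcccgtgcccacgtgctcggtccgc

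The match lies at -68 to -61 in ASNS, at -4 to 4 in SLC38A1, where it spans the annotated start, at -209 to -202 in CHAC1, at -54 to -47 in FGF21 and at -176 to -169 in HERPUD1. In the last 3 it is on the opposite strand. Matches not printed stand in ATF3, which was lower in every knockdown array. They also stand in CREB3L2, PPP1R15B, SLC3A2, SLC1A4 and SLC1A5, whose groups overlapped on the rows used.

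The targeted gene checked the labels. MTDH had log2 values of 6.89, 7.04 and 6.63 in control arrays against 5.77, 5.89 and 5.84 after knockdown, a log2 fold change of -1.02 (SE 0.17, limma, adjusted p = 0.029). This call was lost when control replicate 1 or any of the knockdown replicates was left out, with an adjusted p of at most 0.16. Values are log2 expression values as deposited, and a log2 fold change is the knockdown mean minus the control mean. Control replicate 3 stood apart from the rest, with correlations of 0.90 to 0.955 across genes against 0.959 to 0.980 among the other 5 arrays. The epithelial markers EPCAM and KRT8 read at least 6.89 and 7.99 on every array and PAX8 at least 6.98, whereas the estrogen and progesterone receptor genes ESR1 and PGR reached at most 3.72 and 3.18, under the lowest median of an array, 4.57. Of 14 measured markers of blood, endothelium, fibroblasts and smooth muscle, 12 stayed below that median on all arrays, the others being CD14 and COL1A1. No marker of any of these lists passed the test (limma, lowest adjusted p = 0.084, for KRT19).

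None of the 51 genes passed the test. Over all 14232 genes, 85 changed with adjusted p-values under 0.05 (0.597%), and the lowest adjusted p among the stress response genes was 0.077, for SLC38A1. At an unadjusted p under 0.05 there were 8 of 51 (15.7%), of which EIF2AK3, ATF6, ASNS, MTHFD2, SLC38A1 and SLC38A2 were higher in the knockdown arrays (11.8%) and ATF5 and PPP1R15A lower (3.92%). Over all genes tested 14.1% had such a p, 8.26% with higher and 5.83% with lower values, so the share of members was close to the background. The log2 fold changes of the 51 genes ran from -0.56 to 0.80 with a median of 0.05, where the median over all genes was -0.08, and 28 of 51 (54.9%) were positive against 39.3% of all genes. The arrays measured bulk RNA, in which a shift in every cell and a shift in the share of cells that carry a transcript cannot be told apart.

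**Figure D1:**
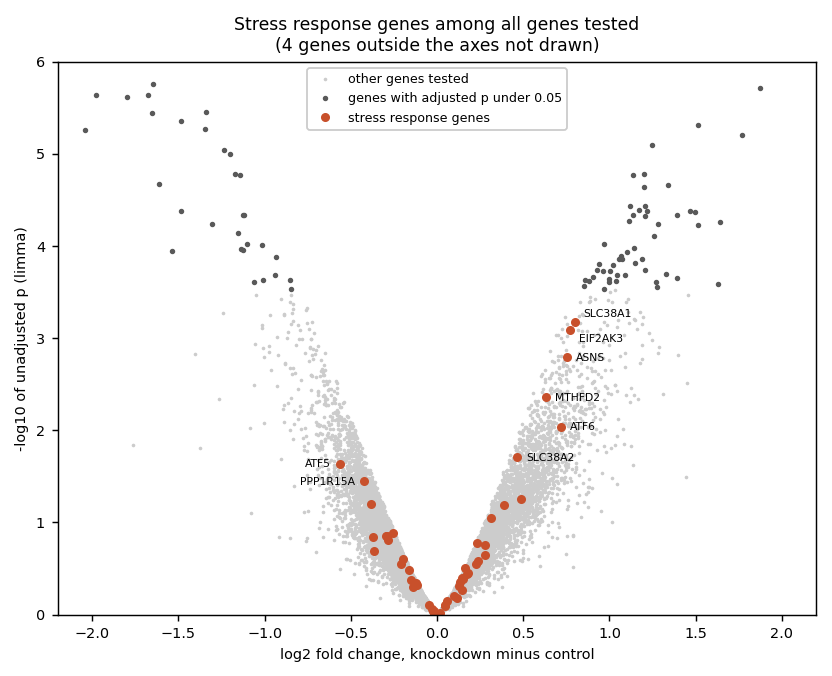
Log2 fold change, knockdown minus control, on the x axis against -log10 of the unadjusted limma p on the y axis for the genes tested (4 genes outside the axes are not drawn), with the genes of adjusted p under 0.05 in dark grey and the 51 stress response genes in orange. The stress response genes lie between -0.56 and 0.80 on the x axis, and all lie below the dark points.

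The 3 arrays of each group did not overlap in 14 of the 51 genes (27.5%), as in 20.0% of all genes tested. In 10 of them all knockdown arrays were higher (19.6%, against 8.81% of all genes) and in 4 all were lower (7.84%, against 11.2%). The background itself differed with brightness. Among the 25 members with a mean log2 value above 6, the arrays lay apart and higher in 7 (28.0%) and lower in 1, against 18.6% and 6.81% of all 2731 genes above that mean. Of these 25 members, 18 had a positive log2 fold change (72.0%) and 5 a higher value at an unadjusted p under 0.05 (20.0%), and among the 2731 genes the shares were 70.0% and 18.7%, close to those of the members. EIF2AK3, PHGDH and VLDLR, also higher without overlap, had means below 6. Leaving out 1 array moved the log2 fold change by over 1.5 times in 39 of the 51 genes for at least 1 of the arrays, and EIF2AK3, NUPR1, PPP1R15A, ASNS, PHGDH, MTHFD2, PCK2, SLC38A1, SLC38A2, VLDLR, FGF21 and CRELD2 were the other 12.

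Among the 4 stress sensors, EIF2AK3 and ATF6 had higher values in every knockdown array, and EIF2AK4 and ERN1 did not. EIF2AK3, which encodes the ER kinase PERK, had log2 values of 4.83, 4.91 and 4.62 in control arrays against 5.52, 5.71 and 5.44 after knockdown. The knockdown arrays lay well clear of the controls, and the means were 4.79 ± 0.15 and 5.56 ± 0.14 (SD, n = 3). The log2 fold change was 0.77 (SE 0.17), or 1.70-fold, and did not pass over all genes (limma, adjusted p = 0.082).

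ATF6, the sensor that becomes a transcription factor, read 6.09, 6.43 and 5.52 in control arrays against 6.60, 6.84 and 6.77 after knockdown. The groups did not overlap, but control replicate 3 was far below the other controls. The log2 fold change of 0.72 (SE 0.23, limma, adjusted p = 0.22) became 0.47 without that array. ERN1, which encodes IRE1, read 4.19, 4.0 and 4.49 against 4.21, 4.05 and 4.27, a log2 fold change of -0.05 with a 95% interval of -0.44 to 0.35. The ERN1 values lay below the median of every array. EIF2AK4, which encodes the amino acid sensor GCN2, read 5.38, 5.00 and 4.96 against 4.66, 5.03 and 5.01, a difference of -0.21 with an interval of -0.62 to 0.20, or -0.08 without control replicate 1. In both genes the groups overlapped, and the intervals given here and below are for single genes, unadjusted for their number.

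The transcription regulators that these sensors act on showed no common shift, with 3 of 7 positive and a median of -0.01, or 0.08 after median centring of the arrays. Centring also moved the median of all genes, from -0.08 to 0.02. ATF4, the main regulator of the amino acid branch, had log2 values of 6.52, 6.32 and 6.15 in control arrays against 6.42, 6.04 and 6.48 after knockdown. The groups lay on top of each other, and the log2 fold change was -0.01 with a 95% interval of -0.42 to 0.39. DDIT3, which encodes the stress factor CHOP, read 5.41, 5.01 and 5.51 in control arrays against 5.44, 5.52 and 5.34 after knockdown, a difference of 0.13 with an interval of -0.27 to 0.53. XBP1, the target of IRE1, read 6.74, 6.67 and 6.63 against 6.88, 6.64 and 6.70. Its difference was 0.06 with an interval of -0.29 to 0.41, and the groups overlapped. The array value of XBP1 is a level of the whole transcript and does not separate its spliced form.

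ATF5, a factor that is translated under the same control as ATF4, had the lowest log2 fold change of all 51 genes. It read 6.17, 5.86 and 6.65 in control arrays against 5.82, 5.57 and 5.61 after knockdown. All knockdown arrays lay below all controls, though the gap was narrow and the controls were widely spread. The log2 fold change was -0.56 (SE 0.21, limma, adjusted p = 0.29), and -0.35 without control replicate 3, which was the highest control. ATF3, a stress-induced repressor and activator of transcription, likewise lay lower without overlap, with 4.81, 5.27 and 4.80 in control arrays against 4.62, 4.41 and 4.68 after knockdown and a log2 fold change of -0.38 (limma, adjusted p = 0.37), or -0.23 without control replicate 2. NUPR1, a small chromatin protein induced by stress, lay higher without overlap, with 6.52, 6.58 and 6.69 against 6.92, 6.75 and 6.80. Its difference of 0.23 had an interval of -0.11 to 0.58. CREB3L2, an ER-anchored factor related to ATF6, differed by -0.02.

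**Figure D2:**
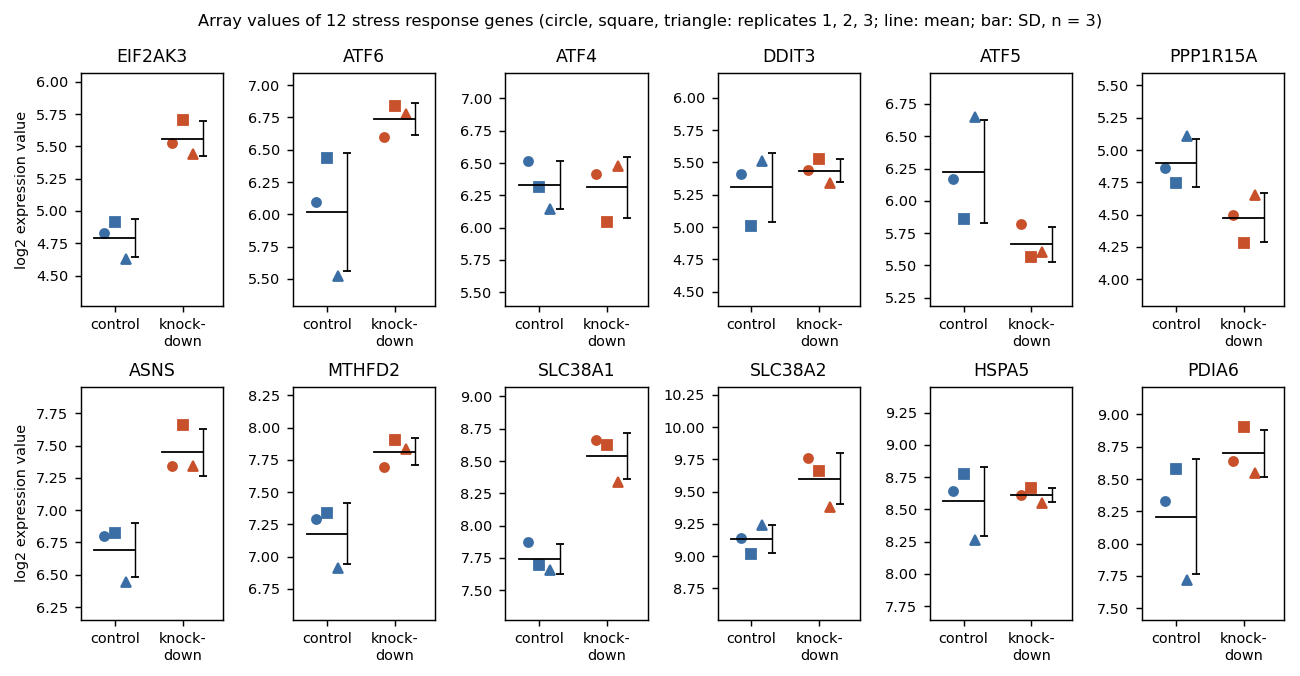
Log2 expression values of 12 stress response genes on the y axis for the 3 control arrays (blue) and 3 knockdown arrays (orange), with the mean as a line and the SD as a bar (n = 3). Each panel spans the same log2 range. EIF2AK3, ATF6, ASNS, MTHFD2, SLC38A1 and SLC38A2 are higher in every knockdown array, ATF5 and PPP1R15A lower, and ATF4, DDIT3, HSPA5 and PDIA6 overlap.

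The feedback and effector genes downstream of ATF4 and CHOP were mixed, with 2 of 6 positive and a median of -0.08, or 0.03 without control replicate 3. PPP1R15A, which encodes GADD34, the inducible subunit that directs removal of the phosphate from eIF2 alpha, read 4.86, 4.74 and 5.11 in control arrays against 4.50, 4.28 and 4.66 after knockdown. All knockdown arrays were lower, by -0.42 on the log2 scale (SE 0.18, limma, adjusted p = 0.32). Its constitutive counterpart PPP1R15B read 5.48, 5.84 and 5.36 against 5.55, 5.93 and 5.73, a log2 fold change of 0.18, or 0.08 without control replicate 3, with overlapping groups. TRIB3, a pseudokinase that dampens ATF4 and CHOP, read 4.74, 4.56 and 5.06 against 4.71, 4.70 and 4.91, a difference of -0.02 with an interval of -0.41 to 0.38.

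CHAC1, an enzyme that breaks down glutathione and a sensitive ATF4 target, had log2 values of 5.09, 4.96 and 5.81 in control arrays against 5.00, 4.44 and 5.32 after knockdown. Its arrays were spread widely in both groups, and the log2 fold change of -0.37 had an interval of -0.96 to 0.23 and became -0.11 without control replicate 3. DDIT4 and SESN2 both restrain the growth kinase mTORC1 under stress. DDIT4 read 5.62, 5.46 and 5.73 against 5.90, 6.17 and 5.57, a difference of 0.28 with an interval of -0.14 to 0.69, or 0.13 without knockdown replicate 2. SESN2 differed by -0.15 with an interval of -0.55 to 0.24, or -0.02 without control replicate 3.

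Among the enzymes of amino acid and folate metabolism, ASNS, MTHFD2 and PHGDH had higher values in every knockdown array and the other 5 measured enzymes overlapped. ASNS, asparagine synthetase, whose promoter match is printed above, read 6.80, 6.82 and 6.45 in control arrays against 7.34, 7.66 and 7.34 after knockdown. The lowest knockdown array was clear of the highest control, and the means were 6.69 ± 0.21 and 7.45 ± 0.18 (SD, n = 3). The log2 fold change was 0.76 (SE 0.18), or 1.69-fold (limma, adjusted p = 0.12). MTHFD2, the mitochondrial folate enzyme, read 7.29, 7.34 and 6.91 against 7.70, 7.90 and 7.83, a log2 fold change of 0.63 (SE 0.18, limma, adjusted p = 0.18).

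The enzymes of serine synthesis and use, also known targets of ATF4, had no gene that passed the test. PHGDH, its first enzyme, read 5.66, 5.65 and 5.41 in control arrays against 5.86, 6.04 and 5.75 after knockdown, a difference of 0.31 with an interval of -0.06 to 0.68. PSAT1, which follows it, read 7.51, 7.04 and 6.57 against 6.74, 7.66 and 6.76. This gene had one of the widest spreads among the members, with SDs of 0.47 and 0.52, and its difference of 0.01 had an interval of -0.63 to 0.66. SHMT2, which passes the carbon of serine to folate, differed by 0.14, or -0.13 without control replicate 3, which read 6.27 where the other 5 arrays lay between 6.90 and 7.19. The cysteine enzymes CBS and CTH differed by -0.03 and -0.29, and CTH read at most 3.74 and so lay below the median of every array. PCK2, a mitochondrial enzyme that links amino acids to glucose synthesis, read 5.50, 5.18 and 5.52 against 4.98, 4.94 and 5.38, a difference of -0.30 with an interval of -0.71 to 0.12.

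Of the amino acid transporters, SLC38A1 and SLC38A2 separated the groups on the rows used and the other 5 did not. Both are sodium-coupled importers of glutamine and other small neutral amino acids. SLC38A1 had log2 values of 7.88, 7.70 and 7.65 in control arrays against 8.66, 8.63 and 8.33 after knockdown. All knockdown arrays were clear of the controls, and the means were 7.74 ± 0.12 and 8.54 ± 0.18 (SD, n = 3). The log2 fold change of 0.80 (SE 0.17), or 1.74-fold, was the highest of the 51 genes (limma, adjusted p = 0.077). SLC38A2 read 9.14, 9.02 and 9.24 against 9.76, 9.66 and 9.38, a log2 fold change of 0.47 (limma, adjusted p = 0.28).

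SLC7A11, the cystine importer that exports glutamate, read 8.58, 8.68 and 7.89 in control arrays against 8.64, 8.73 and 8.61 after knockdown. A single control array stood below the rest, and the log2 fold change of 0.28 became 0.03 without it. SLC7A5, the importer of large neutral amino acids, read 6.22, 6.16 and 6.13 against 6.15, 5.83 and 6.03 and had the one negative value of the group, -0.16 with an interval of -0.52 to 0.19. Its partner SLC3A2 differed by 0.15 and the neutral amino acid exchanger SLC1A4 by 0.05. SLC1A5, the glutamine exchanger, was measured on 2 rows that disagreed. The row used read 4.89, 5.11 and 5.13 in control arrays against 5.81, 4.86 and 4.81 after knockdown, with overlapping groups and a difference of 0.12. The other row read 5.07, 5.15 and 5.57 against 4.81, 4.68 and 4.93, lower without overlap, with a difference of -0.46. The direction of SLC1A5 is therefore not settled.

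Of the secreted and surface proteins, VLDLR, the receptor of very low density lipoprotein, differed least in size among the genes without overlap. It read 4.26, 4.18 and 4.16 in control arrays against 4.37, 4.33 and 4.38 after knockdown, a difference of 0.16 with an interval of -0.17 to 0.50. These values lay below the median of every array, so VLDLR is a dim gene. STC2, a secreted glycoprotein, read 5.11, 5.09 and 4.78 against 5.28, 4.92 and 5.23, a difference of 0.15 with an interval of -0.24 to 0.54, or 0.05 without control replicate 3. The groups of STC2 overlapped. FGF21, a stress hormone, read 3.21, 3.48 and 3.41 against 3.19, 3.26 and 3.07, below the median of every array, so that its difference of -0.20 comes from a dim gene.

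**Figure D3:**
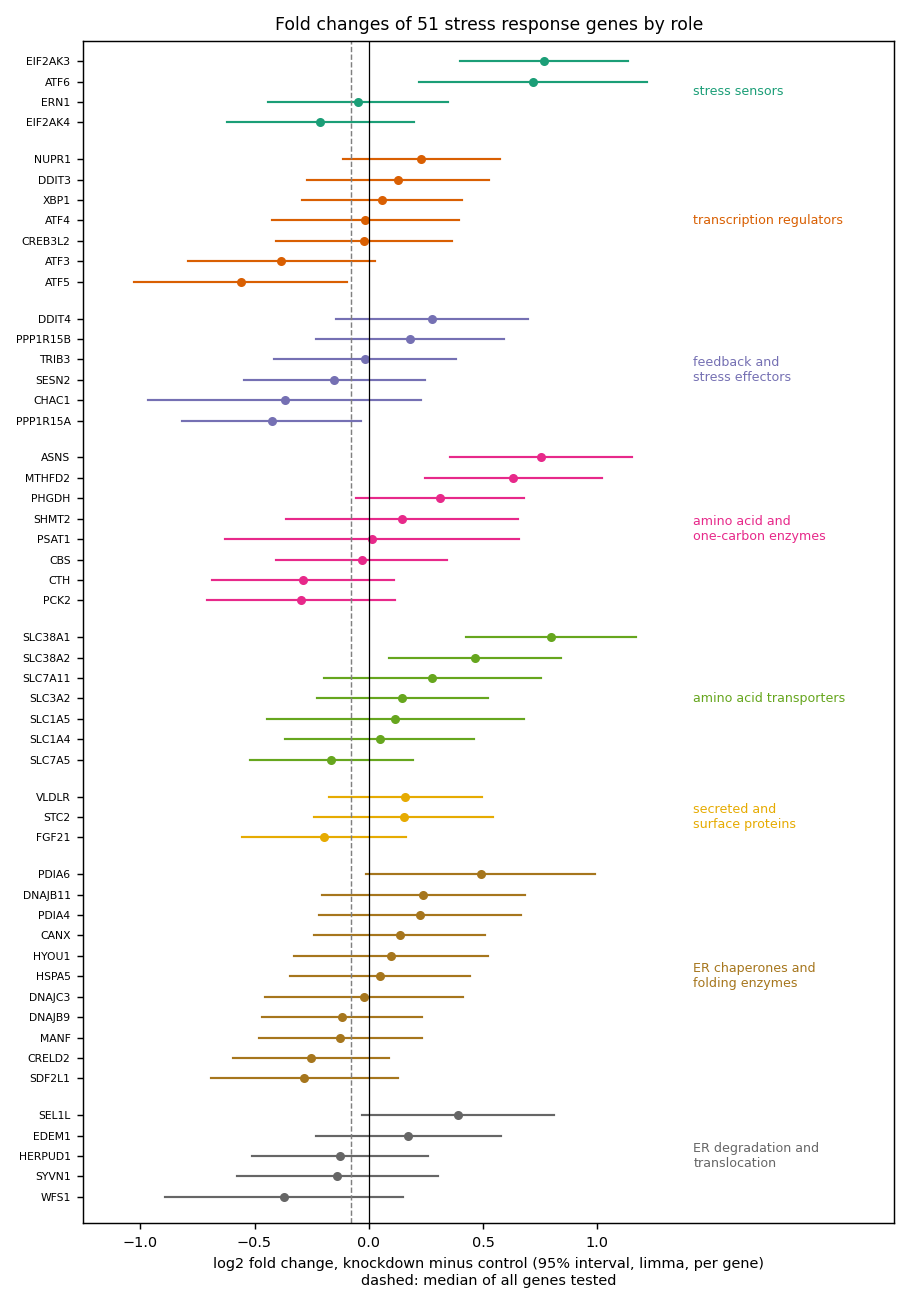
Log2 fold change, knockdown minus control, of the 51 measured genes on the x axis with the 95% interval of each gene from limma, grouped by role, and the median of all genes tested as a dashed line. The intervals of EIF2AK3, ATF6, ATF5, PPP1R15A, ASNS, MTHFD2, SLC38A1 and SLC38A2 leave out 0, and those of all other genes plotted include it.

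The ER chaperones and folding enzymes, the main outputs of ATF6 and spliced XBP1, had 6 of 11 positive values and a median of 0.05, or -0.10 without control replicate 3. HSPA5, which encodes BiP, the chaperone that holds the sensors inactive, read 8.64, 8.78 and 8.27 in control arrays against 8.61, 8.66 and 8.55 after knockdown. The knockdown arrays lay within the range of the controls, and the difference of 0.05 had an interval of -0.34 to 0.44. PDIA6, a disulfide isomerase, had the largest value of the group, with 8.33, 8.58 and 7.72 against 8.64, 8.91 and 8.55, and its log2 fold change of 0.49 became 0.24 without control replicate 3 (limma, adjusted p = 0.36 with all arrays).

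DNAJB11, a cochaperone of BiP, read 9.49, 9.71 and 9.14 in control arrays against 9.76, 9.87 and 9.41 after knockdown, a difference of 0.24 with an interval of -0.20 to 0.68, or 0.09 without control replicate 3. The other BiP cochaperones differed less, DNAJC3 by -0.02 and DNAJB9 by -0.12. HYOU1, which exchanges nucleotides on BiP, differed by 0.10, the isomerase PDIA4 by 0.22, the lectin chaperone CANX by 0.14 and the secreted factor MANF by -0.12. SDF2L1, an ER protein that works with BiP cochaperones, read 6.90, 6.56 and 7.04 against 6.73, 6.39 and 6.54, a difference of -0.28, or -0.18 without control replicate 3. CRELD2, a protein of the ER known to be induced by ER stress, read 6.37, 6.21 and 6.24 in control arrays against 6.06, 5.94 and 6.06 after knockdown. CRELD2 was the one gene of this group without overlap, and its difference of -0.25 had an interval of -0.60 to 0.09. The 5 measured genes with the ER stress element had 4 positive values and a median of 0.06. The 11 with the C/EBP-ATF core had 6 positive values and a median of 0.05. Over all tested genes with a match the medians were -0.057 for the ER stress element and -0.095 for the core. Each of the 5 had a mean above 6, where 70.0% of all genes were positive. After quantile normalization PDIA6, at 0.27, was the only positive value of the 5.

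The degradation genes were mixed, with 2 of 5 positive and a median of -0.13, or 0.05 without control replicate 1. SEL1L, the adaptor of the ubiquitin ligase complex that removes misfolded proteins, read 6.06, 6.11 and 5.61 in control arrays against 6.42, 6.42 and 6.11 after knockdown. Its highest control and lowest knockdown array nearly met, and the difference of 0.39, or 0.23 without control replicate 3, had an interval of -0.03 to 0.81. SYVN1, the ligase that SEL1L supports, read 6.01, 5.47 and 5.44 against 5.33, 5.48 and 5.69, a difference of -0.14 that became 0.05 without control replicate 1. HERPUD1, which assembles the complex, had -0.13. EDEM1, which hands over misfolded glycoproteins, read 4.29, 4.46 and 4.0 against 4.57, 4.49 and 4.22, a difference of 0.17, or 0.05 without control replicate 3. Both SYVN1 and EDEM1 had overlapping groups, and EDEM1 lay below the median of every array. WFS1, an ER membrane protein that restrains ATF6, read 4.75, 3.92 and 4.47 against 4.24, 4.11 and 3.68, and its difference of -0.37, or -0.19 without control replicate 1, had an interval of -0.89 to 0.15.

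Control replicate 3 touched many of these values. On this array 22 of the 25 members with a mean above 6 read below the mean of the other 2 controls, with a median of -0.34, whereas 12 of the 26 dimmer members did, with a median of 0.05. The same tilt held for all genes, with medians of -0.35 above and 0.22 below a mean of 6. Control replicate 3 was the lowest of the 6 arrays for 23 of the 51 genes, against 25.4% of all genes tested. That share is not matched for brightness, as 25 of the 51 members but 2731 of all 14232 genes had a mean above 6. Without this array the 51 genes had a median log2 fold change of 0.03 in place of 0.05, and all genes tested -0.02 in place of -0.08. The offset also differed along the table, which is ordered by row identifier. A cut was placed where the mean offset of bright rows before and after it differed most, so some difference was built in. Among bright rows the median offset was -0.52 in the first 9015 rows, which hold 21 of the 51 genes, and -0.16 in the other 12996. These 21 genes lie on chromosomes 1 to 7 and the other members on other chromosomes, so the parts also divide the members by chromosome. After quantile normalization within these 2 parts, chosen after seeing the data, the log2 fold changes were 0.66 for EIF2AK3, 0.43 for ATF6, 0.40 for ASNS, 0.29 for MTHFD2 and 0.08 for PHGDH, all in the first part, and 0.72 for SLC38A1, in the second. SLC38A1 and EIF2AK3 thus stayed close to their earlier values, and ATF6 and the 3 enzymes were smaller by more than 1.5 times.

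**Figure D4:**
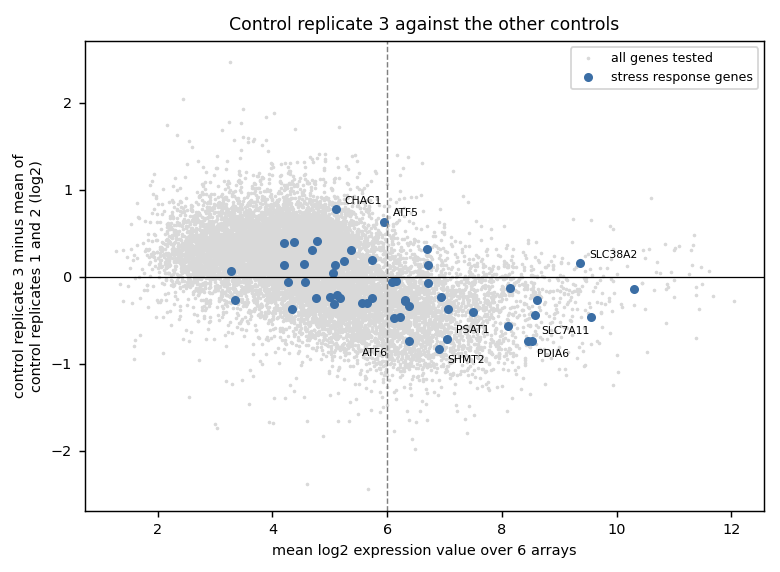
Value of control replicate 3 minus the mean of control replicates 1 and 2 (log2) on the y axis against the mean log2 value over the 6 arrays on the x axis, for all genes tested (grey) and the 51 stress response genes (blue), with a dashed line at a mean of 6. Of the 25 stress response genes to the right of the line, 22 lie below 0.

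The wider pathway was read from 81 other genes, of which 67 were measured, 46 of them with positive values (68.7%, against 39.3% of all genes tested), or 38 without control replicate 3. At an unadjusted p under 0.05 there were 10 higher (14.9%, against 8.26% of all genes and 18.7% of those with a mean above 6) and 0 lower. Of the 67 genes, 37 had a mean above 6. Control replicate 3 was the lowest array for 45 of the 67, against 25.4% of all genes, a share not matched for brightness. Its part in these counts was not tested. RNF139, an ER ubiquitin ligase, rose and was the 1 gene of the 67 that passed. It read 5.90, 6.06 and 6.05 in control arrays against 7.08, 7.36 and 6.92 after knockdown, a log2 fold change of 1.12 (SE 0.17, limma, adjusted p = 0.020). The call was lost when control replicate 1 or any of the knockdown replicates was left out (adjusted p up to 0.13), and within 2 parts of the table its log2 fold change was 0.77 (adjusted p = 0.11). RNF139 lies on chromosome 8, as does DERL1, a channel protein of ER-associated degradation, which was singled out after its values were seen and had 0.85 (limma, adjusted p = 0.070, or 0.042 within 2 parts of the table). None of the 51 measured members lies on that chromosome.

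No other gene of the wider pathway passed. ER translocation and signal peptide genes had 10 of 12 positive values (83.3%) and a median of 0.44. Of these 12 genes, 10 had a mean above 6, where 70.0% of all genes were positive, and control replicate 3 was the lowest array for 10. Without that array the median was 0.20, and 10 of the 12 values were still positive. SSR3, a subunit of the translocon-associated complex, read 5.52, 5.89 and 4.72 in control arrays against 6.70, 6.68 and 5.66 after knockdown. Its groups overlapped and its difference was 0.97 (SE 0.33, limma, adjusted p = 0.25), or 0.64 without control replicate 3. Other ER folding genes had 12 of 13 positive with a median of 0.18, or 9 and 0.07 without control replicate 3, led by the peroxiredoxin gene PRDX4 at 0.50. Other degradation genes had 10 of 15 positive with a median of 0.20, or 8 and 0.12 without that array, RNF139 and DERL1 among them. Other ATF4 targets had 8 of 16 positive and a median of 0.01, or -0.05 without it, led by the chloride channel gene CLCN3 at 0.51 or 0.20 without control replicate 3, and other regulators 6 of 11 and a median of 0.07, or -0.05 without it, led by the kinase gene EIF2AK1 at 0.38 or 0.08 without that array.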

How the data were processed

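RNA of 6 Ishikawa H samples was amplified, biotin-labelled and read on Affymetrix arrays. The table deposited by the authors holds log2 values for each array, and the submitters' processing notes name Partek. Its version and how background and arrays were normalized were not given in the sources used here. No detection values or probe intensities were used. The methods name a gene array, whereas the row identifiers are those of an exon array's transcript clusters. Array values can understate fold changes, above all of dim genes, and the number of arrays limits the precision.

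The table held 22011 rows, of which 14432 had 1 gene symbol in the platform annotation, 2408 several and 5171 none. The row with the highest mean stood for a gene, which left 14232 genes. Groups and replicate numbers came from the sample titles. limma (version 3.58.1, R version 4.3.3) was fitted with a mean per group on all 6 arrays, with empirical Bayes moderation, two-sided p-values and Benjamini-Hochberg adjustment over all 14232 genes, and an adjusted p under 0.05 was called changed. The fit was tested on simulated data. All measured members could be named, with array values for up to 4 per role by size of log2 fold change and for ATF4, DDIT3, XBP1, ATF6 and HSPA5, and of the wider pathway the genes called or the largest of each list. Array values of TRIB3, PSAT1, SHMT2 and SLC1A5 were added after their values were seen. The members, the lists and the promoter motifs were chosen with earlier results of these data known.

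Alternatives were another choice of row, all rows, a filter on dim genes, quantile normalization, median centring, a trended robust prior, a replicate block, removal of single arrays, and the treat test of limma with 1.5 as its minimum fold. Quantile normalization within 2 parts of the table was added after seeing the data. Promoter sequences and chromosomes came from RefSeq (GRCh38.p14), matched by symbol or gene identifier. The array files name no genome build, so positions belong to the promoter table alone.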

Additional observations from a re-analysis of the deposited data

How the results depend on the processing

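No member passed under any alternative except the replicate block. The block called 3 of the 51 members, EIF2AK3, ASNS and SLC38A1 (limma with the block, adjusted p = 0.036, 0.041 and 0.034), beside 364 of all 14232 genes in place of 85. It also called 3 of the 67 measured genes of the wider pathway, DERL1, RNF139 and SSR3. The replicate numbers were not taken to pair the arrays in the main fit. Deviations from the group means correlated at -0.10, 0.47 and 0.31 for numbers 1, 2 and 3. Those for numbers 2 and 3 were the highest of all pairs of a control with a knockdown array. Control replicate 1 correlated best with knockdown replicate 2, at 0.20, so these values do not settle whether the arrays are paired. The count of 85 (53 higher, 32 lower) was 61 after quantile normalization (29 higher, 32 lower), 19 over all rows of the table, 48 after median centring, 4 in the treat test and 12 to 233 with 1 array left out, the former without control replicate 1 and the latter without control replicate 2. The wider pathway held 0 called genes over all rows and in the treat test, and 0 to 1 with 1 array left out. The MTDH log2 fold change was -1.02 over all rows (adjusted p = 0.0997) and in the treat test (adjusted p = 1.00), -0.92 after median centring (adjusted p = 0.096) and between -1.13 and -0.92 with 1 array left out (adjusted p = 0.015 to 0.16).

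The median log2 fold change of the members was 0.15 after median centring and 0.032 to 0.11 with 1 array left out, and 25 of 51 were positive after quantile normalization and 34 after median centring in place of 28. The median of all genes also moved, from -0.08 to 0.02 after median centring, and ran from -0.12 to -0.020 with 1 array left out. Of the 51 members, 31 kept the sign of their log2 fold change under each of the alternatives that tested them and 20 changed it under at least 1, none of them called. With the mean of all rows of a gene SLC1A5 was at -0.17. After quantile normalization ERN1 was at 0.056, XBP1 at -0.13, CREB3L2 at 0.050, TRIB3 at 0.061, PSAT1 at -0.17, SHMT2 at -0.027, CBS at 0.020, SLC3A2 at -0.0055, HSPA5 at -0.16, HYOU1 at -0.023 and CANX at -0.0077. After median centring ERN1 was at 0.050, ATF4 at 0.084, CREB3L2 at 0.078, TRIB3 at 0.082, CBS at 0.068 and DNAJC3 at 0.078. Within 2 parts of the table ERN1 was at 0.10, TRIB3 at 0.13, PPP1R15B at -0.026, PSAT1 at -0.038, CBS at 0.11, SLC7A11 at -0.010, HSPA5 at -0.054 and PDIA4 at -0.087. With 1 array left out ERN1 ran from -0.16 to 0.083, ATF4 from -0.11 to 0.12, DDIT3 from -0.023 to 0.23, XBP1 from -0.012 to 0.11, CREB3L2 from -0.090 to 0.081, TRIB3 from -0.13 to 0.12, PSAT1 from -0.29 to 0.25, SHMT2 from -0.13 to 0.33, CBS from -0.12 to 0.046, SLC1A4 from -0.11 to 0.16, SLC1A5 from -0.21 to 0.29, HSPA5 from -0.099 to 0.16, HYOU1 from -0.056 to 0.22, DNAJC3 from -0.13 to 0.16 and SYVN1 from -0.24 to 0.048. Median centring subtracts 1 value per array and so moved every log2 fold change by the same amount. The causes of the other shifts were not tested. With 3 arrays per group the values of the 51 genes are bounded by their intervals and are not shown to be equal between the groups.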

Other observations

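Rows that name a member together with other genes were left out of the fit over genes and were tested in the fit over all rows of the table. A row that lists PSPH, the last enzyme of serine synthesis, with NUPR2 had log2 values of 6.13, 6.12 and 5.98 in control arrays against 6.34, 6.36 and 6.50 after knockdown, a log2 fold change of 0.32 without overlap (limma over all rows, adjusted p = 0.46). A row that lists GDF15, a stress-induced cytokine, with MIR3189 had 5.15, 4.86 and 4.97 against 5.12, 5.10 and 5.19, a log2 fold change of 0.15 (adjusted p = 0.69). A row that lists HSP90B1, the ER form of HSP90, with HSP90B3P had a log2 fold change of -0.01 and another, listed with LRRC28 and HSP90B2P, -0.28. A row that lists PDIA3 with CATSPER2 and CATSPER2P1 had -0.29 (adjusted p = 0.51). MTHFD2 and PDIA6 were also listed on further rows, with SLC4A5 and ATP6V1C2. These rows read at most 3.98 and 4.52, under the lowest array median, and had log2 fold changes of -0.15 and 0.07. No row that names a member together with other genes passed the test over all rows.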
